A study of Mus musculus with 3 samples.

Results

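The histone genes of the mouse were taken from a count table of blastocyst RNA-Seq by their symbols. Symbols that begin with Hist1h, Hist2h, Hist3h or Hist4h gave 68 genes of the histone clusters, and symbols that begin with H2af, H3f3 or H1f gave 16 variant histone genes. Together these were 84 of the 24063 genes in the table. The cluster genes were 6 of the H1 family, 18 of H2A, 19 of H2B, 12 of H3 and 13 of H4, and the variant genes were 4 of H1, 10 of H2A and 2 of H3. The study asked whether the diabetes-prone strain NOD (non-obese diabetic) differs from the diabetes-resistant strain B6 before implantation. The libraries compared were 1 of C57BL/6 (B6) and 2 of NOD, all from blastocysts without treatment. The labels name the strain and the whole blastocyst as the material, whereas the study's methods describe the inner cell mass (ICM) taken from single embryos, and neither gives a genetic modification, an age or the litters.

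Histones package DNA into nucleosomes, which hold a core of H2A, H2B, H3 and H4, with the linker histone H1 bound outside. The genes of the histone clusters are used in S phase, when new DNA must be packaged. Their messages are cut behind a conserved stem-loop, which the stem-loop binding protein Slbp recognises, and most carry no poly(A) tail. Variant histones are made outside S phase as well, mostly from genes with introns and polyadenylated messages, and serve at promoters, at centromeres, in DNA repair or in germ cells. SMART-Seq starts the copying of RNA with an oligo(dT) primer, which binds poly(A). In early embryos histones come both from the oocyte's store and from the embryo's own genes.

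The libraries held 12505685 counts on genes in B6, 33891715 in NOD replicate 1 and 36171013 in NOD replicate 2. Only NOD has a replicate, so B6 enters every comparison without an error of its own, and no label says whether the NOD libraries came from separate litters, so the p-values measure only the spread between these samples. Markers of the trophectoderm summed to 2813 CPM (counts relative to library size, after TMM scaling) in B6 and to 1622 and 1492 in NOD, with 5 of the 6 genes lower in both NOD libraries. Markers of the epiblast and ICM summed to 386 in B6 and to 401 and 586 in NOD, with 3 of 6 genes higher in both NOD libraries and 3 lower, of which Sox2 was called (49.8 CPM in B6 against 5.75 and 9.61, adjusted p = 0.0327). The primitive endoderm list of 4 genes summed to 391 in B6 and to 118 and 158 in NOD, most of it Gata6, which was called lower (385 CPM in B6 against 91.5 and 130, adjusted p = 0.0285), while Pdgfra was called higher (5.50 CPM in B6 against 23.6 and 24.6, adjusted p = 0.0488). The oocyte list summed to 31.6 in B6 and to 11.2 and 6.47 in NOD, with 3 of 6 genes lower in both NOD libraries, and Zp1 and Bmp15 had counts in NOD only. The median log2 fold changes of the tested genes were -0.82 for trophectoderm, -0.48 for epiblast and ICM, 2.39 for primitive endoderm and -1.75 for the oocyte. The primitive endoderm median rests on 4 genes, of which Sox17 had 0 counts in B6 and 0 and 16 in NOD. Its fitted log2 fold change was 5.69 (SE 5.13), but its NOD mean was only 1.07-fold the B6 floor of 3 counts. The cumulus list stayed at or under 0.484 CPM in every library with 4 of its 6 genes at 0, and the leukocyte list at or under 1.03 CPM with 3 of 6 at 0, Ptprc among them. Each of these lists thus held genes with both NOD libraries above B6 and genes with both below. The part of these markers in the histone results was not tested.

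The stem-loop was searched as GG, any 2 bases, CTTTT, any base, AG, any 2 bases and CC, in this order, on the transcript strand of the GENCODE M21 (GRCm38) transcripts. These were matched by RefSeq accession for 67 of the 68 cluster genes and 15 of the 16 variant genes. It was found in 43 of the 67 cluster transcripts (64.2%) and in 1 of the 15 variant transcripts, that of H2afx, against 44 of 55368 other genes (0.0795%). Several matched transcripts without it are shorter than the span in the count table, such as that of Hist1h2bl with 381 bases against 429. A stem-loop or poly(A) signal past such an end would be missed, so a missing match does not show that the gene lacks it. The windows below show the stem-loop of the 3 called cluster genes that hold it, of 4 cluster genes that were not called, and of H2afx, with the 16 matched bases in capitals.
Hist1h4d: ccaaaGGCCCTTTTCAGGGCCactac
Hist1h2bg: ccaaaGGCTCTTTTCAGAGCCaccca
Hist1h1d: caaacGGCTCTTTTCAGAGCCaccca
Hist1h1c: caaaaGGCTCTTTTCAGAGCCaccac
Hist1h1e: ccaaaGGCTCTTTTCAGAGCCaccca
Hist1h2ae: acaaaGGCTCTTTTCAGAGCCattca
Hist1h3c: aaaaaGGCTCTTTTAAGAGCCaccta
H2afx: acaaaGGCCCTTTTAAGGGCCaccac

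The stem that Hist1h2bg, Hist1h1d, Hist1h1c, Hist1h1e and Hist1h2ae share was held by 25 members, of the H1, H2A, H2B and H3 families. The stem of Hist1h4d was held by 7 members, all of the H4 family. The same stem was held by genes that were called and genes that were not.

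A poly(A) signal, AATAAA or ATTAAA in the last 50 bases, was present in 17 of the 67 cluster transcripts and in 11 of the 15 variant transcripts, against 33.7% of all 141767 transcripts. Both features together were found in 12 cluster transcripts and in H2afx. The windows show the signal in capitals for the called variants H2afj and H1fx, for the abundant variants H3f3b, H2afv and H2afx, and for Hist1h2ae, a cluster gene with both features. The matched transcript of H2afy, the third called variant, holds neither form of the signal in its last 50 bases.
H3f3b: cttacaAATAAActagtaagtttggagttt
H2afj: aggacaAATAAAgaatatattacaaatctg
H1fx: gggcgcAATAAAcggttccaaccttga
H2afv: cacagaAATAAAgaaactagcactagtgtg
H2afx: aattttATTAAAggatcgtttggttttgtt
Hist1h2ae: ttctccAATAAAtgggtcaatttttttcag

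Of the 84 histone genes, 76 had a count in at least 1 library. The 8 at 0 in every library were 4 variants, namely the spermatid linker histone H1fnt and H2afb1, H2afb2 and H2afb3, and 4 cluster genes of the H2A and H3 families. The filter on low counts was passed by 55 genes, 43 of the clusters and 12 variants. Of the 43 cluster genes, 30 passed in both strains, 5 through B6 only and 8 through NOD only. Of the 12 variants, 11 passed in both strains and H2afy3 through NOD only. The calls and medians that follow concern these 55 genes, and the others are described by their counts.

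As a sum, the cluster genes stood at 288 CPM in B6, 52.4 in NOD replicate 1 and 49.5 in NOD replicate 2, which made the B6 level 5.65-fold the NOD mean (51.0 ± 2.06, SD, n = 2). The variant genes summed to 3120 CPM in B6, 2794 in NOD replicate 1 and 2691 in NOD replicate 2, a ratio of 1.14. Messages of the histone clusters were thus a small part of the histone counts in every library, and a smaller part in NOD. Within each library, where no scaling enters, there were 0.0923 cluster counts for each variant count in B6, 0.0188 in NOD replicate 1 and 0.0184 in NOD replicate 2. On the log2 scale this ratio was -3.44 in B6 and -5.75 ± 0.020 (SD, n = 2) in NOD, a difference of -2.31. With 1 library against 2, an exact permutation test cannot give a p below 0.333, so no test was made of this difference. It was -1.98 without Hist1h4d and -1.71 without H3f3b, so that these 2 genes carried part of it. With the members split by a stem-loop match in place of their symbols, a split chosen after seeing the data that puts H2afx with the stem-loop genes and the 24 cluster genes without a match with the rest, it turned to 0.27. This ratio was -2.73 on the log2 scale in B6, -2.66 in NOD replicate 1 and -2.27 in NOD replicate 2, so that its size rests largely on NOD replicate 2. Of the stem-loop counts in this split, H2afx held 3765 in B6 and 11925 and 15041 in NOD. The 43 cluster genes with a match held 2307 in B6 and 939 and 977 in NOD. As a sum these 43 genes stood at 169 CPM in B6 and at 28.4 and 28.7 in NOD, a 5.93-fold ratio. In bulk libraries such as these, fewer cells of a type and less RNA per cell cannot be told apart.

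**Figure D1:**
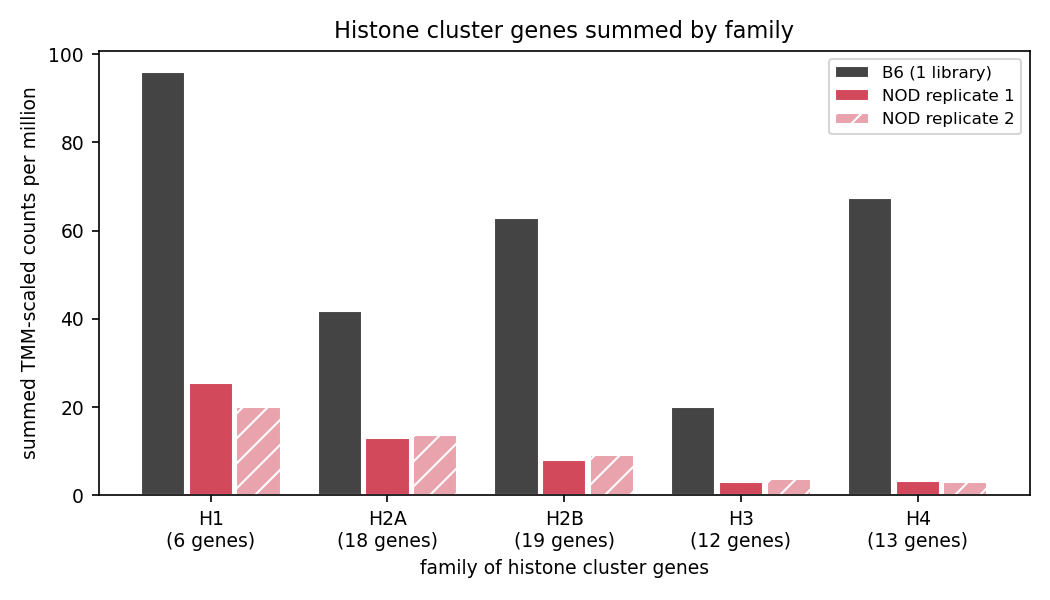
The bars give the summed TMM-scaled CPM (vertical axis, from 0) of the cluster genes of each family in the B6 library and both NOD libraries. In each family the B6 bar is the tallest, from 96.0 against 25.4 and 20.04 for H1 to 67.4 against 3.15 and 2.998 for H4.

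The sum was higher in B6 than in both NOD libraries in each family. For H4 the sum was 67.4 CPM in B6 and 3.15 and 2.998 in NOD, 22.0-fold, and Hist1h4d held 843 of the 919 B6 counts. Without Hist1h4d, a choice made after its values were seen, H4 stood at 5.58 CPM in B6 and at 2.66 and 2.23 in NOD, 2.28-fold. H2B summed to 62.8 CPM in B6 and to 8.05 and 9.08 in NOD, a 7.34-fold ratio that was 3.22-fold without Hist1h2bc, and H3 to 20.04 in B6 and to 2.93 and 3.79 in NOD, a 5.96-fold ratio. The linker family H1 summed to 96.0 CPM in B6 and to 25.4 and 20.04 in NOD, a 4.23-fold ratio. H2A summed to 41.8 CPM in B6 and to 12.9 and 13.6 in NOD, a 3.15-fold ratio. The order of the families by ratio thus rests on single genes, Hist1h4d for H4 and Hist1h2bc for H2B. With all genes, H4 made up 23.4% of the cluster counts in B6 but 6.00% and 6.05% in NOD, while H1 made up 33.3% in B6 and 48.4% and 40.5% in NOD. No test was made of the differences between families.

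Across all 14456 genes tested, edgeR's quasi-likelihood test called 10.3% higher and 7.39% lower in NOD, calls being genes that changed 2-fold or more with an adjusted p under 0.05. Of the 43 cluster genes tested, 4 were called lower and none higher. That share of lower calls is close to the background of all genes, and other tools and settings called between 0 and 6 cluster genes lower. With limma-voom, and with edgeR without the filter on low counts, 0 of all genes passed the adjusted threshold, against 1633 and 3221 higher and 2291 and 2347 lower genes at an unadjusted p under 0.05. At an unadjusted p under 0.05, 11 cluster genes were lower and 0 higher, against 17.7% and 22.2% of all genes. The 2 NOD libraries were both below B6 in 42 of the 64 cluster genes with a count and both above it in 12, and the strains overlapped in 10. Among all 16765 genes with a count, 39.0% had both NOD libraries below B6 and 41.0% both above. Of the 43 tested cluster genes 34 were below in both NOD libraries and 9 above, against 39.4% and 45.3% of all genes tested. However, 5 of the 43 passed the filter through B6 only and 8 through NOD only, so that the filter largely set their direction. The median log2 fold change of the 43 cluster genes was -1.73, against 0.26 over all genes tested, and it was the same with genes at 0 in a strain set to their bound. Inside the span listed in the count table, at least 10% of the 50-base words of the matched transcript occurred in another gene for 56 of the 62 cluster genes placed there, and at least 50% for 41. All 4 called cluster genes were among the 56. How reads that match several genes were counted is not stated, so the split of counts between such copies is uncertain and the genes are not independent.

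Of the 4 called genes, 3 encode core histones and 1 a linker histone, and all lie in the main Hist1 block of chromosome 13, which the table places between 23531044 and 23934913 of mm10. The H4 gene Hist1h4d (chr13:23581602-23581969, plus strand) had the highest level of the cluster genes in B6, with 61.9 CPM against 0.484 in NOD replicate 1 and 0.764 in NOD replicate 2. These were 843, 16 and 26 counts, and the log2 fold change was -6.62 (SE 0.52, adjusted p = 0.0196). Hist1h4d thus went from the first place among cluster genes in B6 to a level near that of many weak cluster genes in NOD. Of the 50-base words in its listed span, 34.8% also occur in other genes.

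The H2B gene Hist1h2bc (chr13:23684199-23692480, plus strand) stood at 41.5 CPM in B6, 2.51 in NOD replicate 1 and 1.35 in NOD replicate 2. Its log2 fold change was -4.42 (SE 0.58, adjusted p = 0.0231). No stem-loop match was found in its matched transcript, and 47.9% of the words in its listed span occur in other genes. A second H2B gene, Hist1h2bg (chr13:23571400-23571863, plus strand), had 80 counts in B6 and 1 and 5 in NOD, or 5.87, 0.0303 and 0.147 CPM. Its log2 fold change was -5.97 (SE 1.36, adjusted p = 0.0434), and it passed the filter through B6 only. With upper-quartile factors it was no longer called (adjusted p = 0.0551), and its adjusted p over all alternatives ran from 0.00753 to 0.198. Of the words in its listed span 68.2% occur in other genes, the largest share among the called cluster genes.

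The linker histone gene Hist1h1d (chr13:23555032-23555807, plus strand) had 184 counts in B6, 19 in NOD replicate 1 and 8 in NOD replicate 2, or 13.5, 0.575 and 0.235 CPM. The log2 fold change was -5.04 (SE 0.89, adjusted p = 0.0320). Of the words in its listed span 22.4% occur elsewhere, the lowest share among the called cluster genes.

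**Figure D2:**
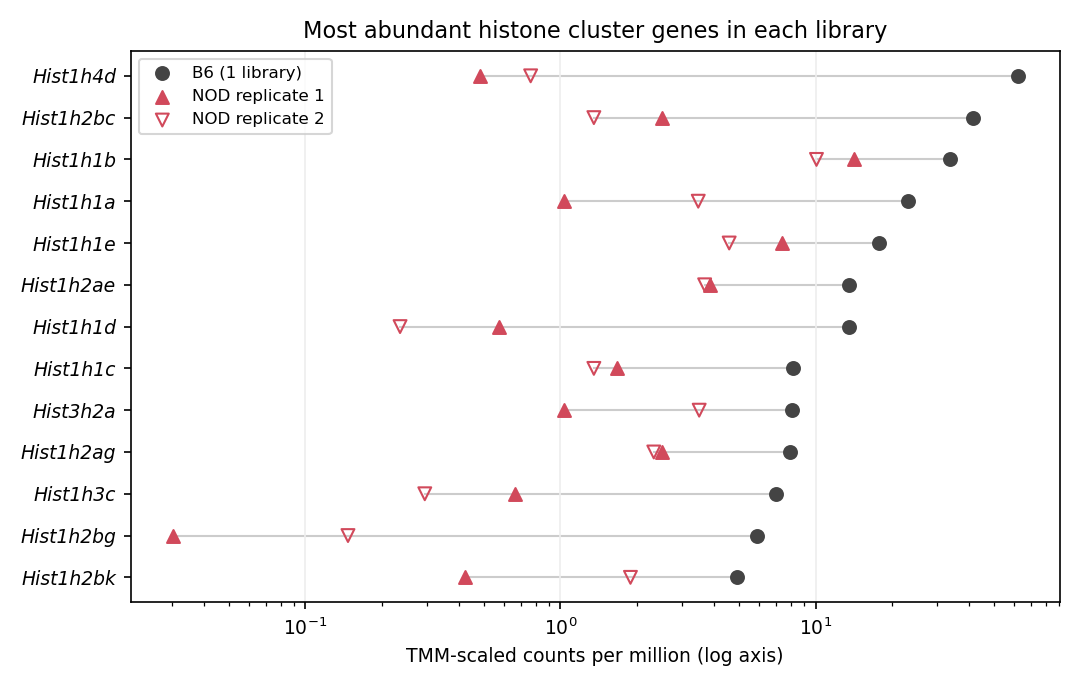
Each row is a cluster gene named in the text, and the horizontal log axis gives TMM-scaled CPM in the B6 library (circles) and both NOD libraries (triangles), with a grey line from the lowest to the highest. All 13 genes lie to the right in B6, by the widest gap for Hist1h4d and Hist1h2bg.

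Of the other 5 linker genes of the clusters, Hist1h1a, Hist1h1b, Hist1h1c and Hist1h1e were lower in both NOD libraries without being called, and the testis gene Hist1h1t, given below, had counts in NOD only. Hist1h1a stood at 23.0 CPM in B6 and at 1.03 and 3.47 in NOD (log2 fold change -3.35, SE 0.84, adjusted p = 0.0560), and its NOD libraries stood far apart. Hist1h1b, the only linker gene in the first Hist1 block (chr13:21779832-21780625, minus strand), had 33.6 CPM in B6, 14.2 in NOD replicate 1 and 10.1 in NOD replicate 2. Hist1h1b was the most abundant cluster gene in NOD, also per kilobase of listed length, with 17.9 and 12.7 CPM per kb against 42.5 in B6. Hist1h1e followed in NOD with 7.38 and 4.58 CPM against 17.7 in B6, and Hist1h1c had 8.15 CPM in B6 and 1.66 and 1.35 in NOD. The log2 fold changes of Hist1h1b, Hist1h1e and Hist1h1c were -1.47 (SE 0.45, adjusted p = 0.0816), -1.56 (SE 0.59, adjusted p = 0.120) and -2.43 (SE 0.78, adjusted p = 0.0906). Hist1h1d alone among the linker genes of the clusters was past the threshold.

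Among H2A genes of the clusters, none of the 13 tested was called, against 7.39% lower and 10.3% higher of all genes tested. Hist1h2ae had 13.5 CPM in B6 and 3.87 and 3.67 in NOD (log2 fold change -1.84, SE 0.60, adjusted p = 0.0922). Hist1h2ag had 7.93 CPM in B6 and 2.51 and 2.32 in NOD, and 82.3% of the words in its listed span occur in other genes. Hist3h2a on chromosome 11 had 8.07 CPM in B6 and 1.03 and 3.50 in NOD. The NOD values were below B6 for these 3 genes, with adjusted p-values of 0.156 for Hist1h2ag and 0.221 for Hist3h2a.

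Of the remaining named genes, the H2B gene Hist1h2bk stood at 4.92 CPM in B6 and at 0.424 and 1.88 in NOD (adjusted p = 0.248). The H3 gene Hist1h3c stood at 6.97 CPM in B6 and at 0.666 and 0.294 in NOD, with a log2 fold change of -3.85 (SE 1.02, adjusted p = 0.0617). Neither was called, and DESeq2's test called Hist1h3c and Hist1h1a (adjusted p = 0.0423 and 0.00329). The 13 cluster genes named so far held 85.6% of the cluster counts in B6 and 69.3% and 68.0% in NOD.

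A further 31 cluster genes reached 10 counts in a library. Their highest level was 3.60 CPM in B6 and 1.68 CPM in NOD, and none was called (lowest adjusted p = 0.0865). In 21 of them both NOD libraries were below B6 and in 9 both above, against 39.0% and 41.0% of all genes with a count, and 1 overlapped. The last 24 cluster genes stayed under 10 counts in each library, 4 of them at 0 throughout.

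Some cluster genes were counted in only one strain. In B6, 18 cluster genes were at 0 that had counts in NOD, and 4 were at 0 in both NOD libraries that had counts in B6. The B6 library was the shallowest, and its floor of 3 counts was 0.220 CPM against 0.0908 and 0.0882 in NOD. Hist1h4a had 22 counts in B6 and 0 in both NOD libraries, at least 36.1-fold lower against a floor of 3 counts over the NOD pair (adjusted p = 0.0865). In the other direction, Hist3h2ba had 0, 24 and 23 counts and was higher in NOD by at least 3.18-fold against the floor of the B6 library (adjusted p = 0.140), and Hist4h4 had 0, 19 and 23 counts, at least 2.84-fold above the floor (adjusted p = 0.151). These members were named after their values were seen.

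The testis histones had few counts in each library. The testis linker gene Hist1h1t had 0 counts in B6 and 19 and 11 in NOD, at least 2.04-fold above the B6 floor (adjusted p = 0.188). Hist1h2aa had 2, 18 and 27 counts in B6 and the NOD libraries (adjusted p = 0.430), and its neighbour Hist1h2ba had 0, 5 and 4, too few for the test. Neither strain showed a level of these genes above 0.793 CPM, and none of the differences was called.

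**Figure D3:**
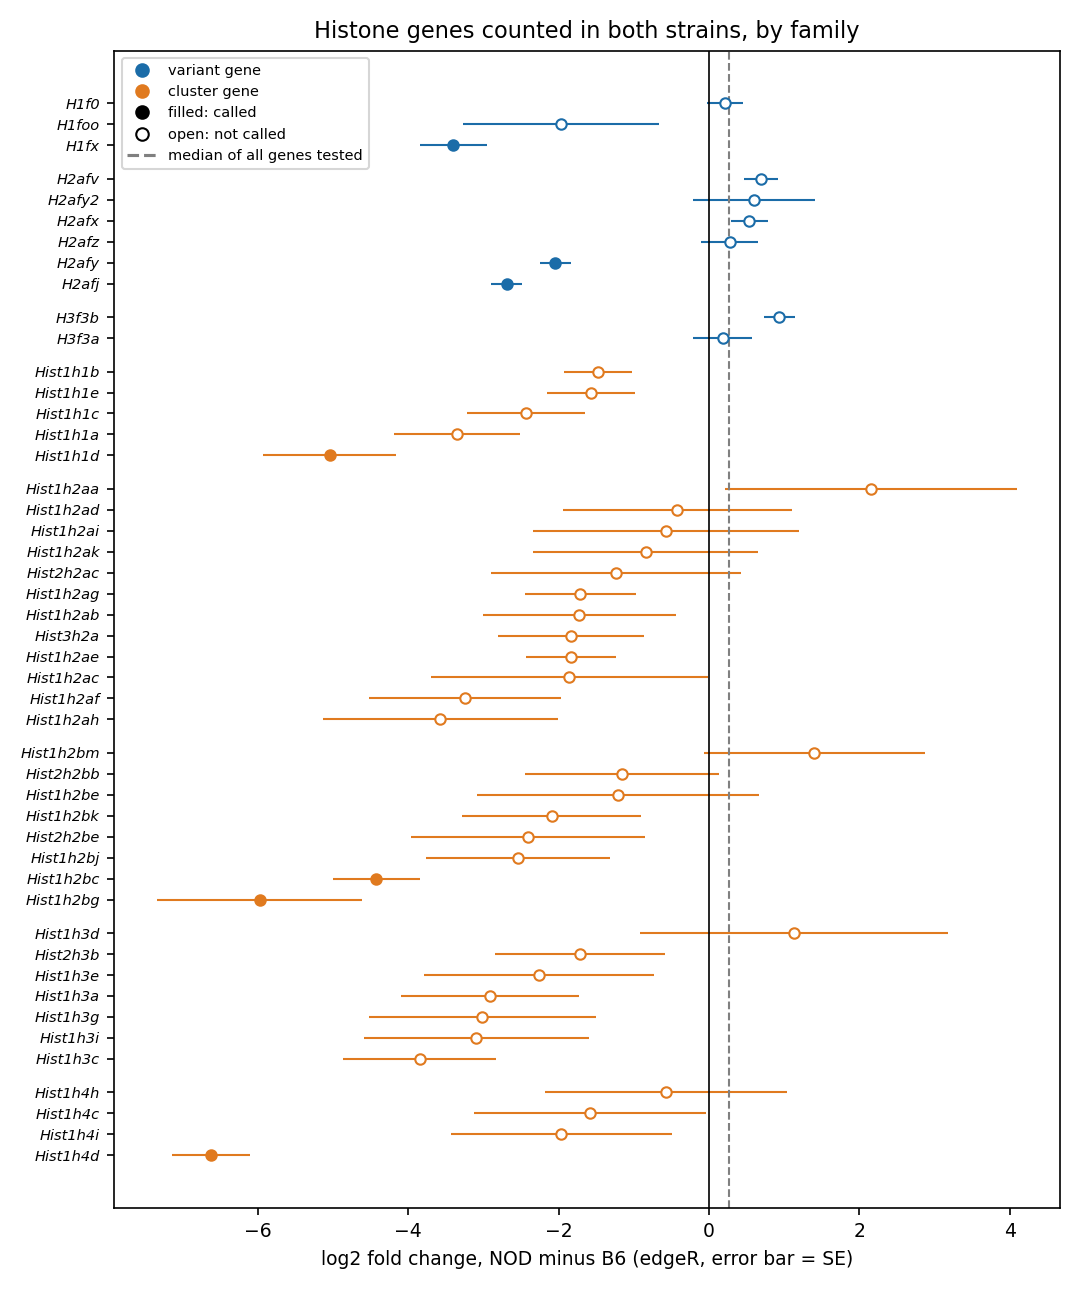
Points give the log2 fold change (NOD minus B6, horizontal axis) with its standard error for the 47 tested histone genes counted in both strains, grouped by family, variants in blue and cluster genes in orange; filled points were called. The 7 called genes all lie left of 0, the open cluster genes lie mostly left of 0 as well, and the uncalled variants apart from H1foo lie between 0.18 and 0.94, around the dashed median of all genes at 0.26.

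Cluster genes of H2A and H2B often lie head to head, so that both are read outwards from the same stretch of DNA. Among the listed genes, 11 such pairs had starts 173 to 306 bases apart, and in 6 both genes passed the filter. Both NOD libraries were below B6 for both genes in 5 of these 6. Counted by gene rather than by pair, 34 of all 43 tested cluster genes and 39.4% of all genes tested were below. Hist1h2bg and Hist1h2ah passed the filter through B6 only, and Hist1h2an and Hist1h2bp through NOD only. In the pair of Hist1h2ae and Hist1h2bg the fold changes differed in size, -1.84 for the H2A gene, with 184, 128 and 125 counts, and -5.97 for the H2B gene, with 80, 1 and 5. In the 5 pairs below B6 the larger difference lay with the H2B gene in 4 and with the H2A gene in 1. It also lay with the H2B gene for Hist1h2ac (15, 17 and 3 counts) and Hist1h2bc (565, 83 and 46 counts), with -1.85 and -4.42, for Hist1h2ag and Hist1h2bj, with -1.71 and -2.54, and for Hist2h2ac and Hist2h2be, with -1.24 and -2.40. It lay with the H2A gene for Hist1h2ah (20, 4 and 4 counts) and Hist1h2bk (67, 14 and 64 counts), with -3.57 and -2.09. The pair not below B6 was Hist1h2an and Hist1h2bp, which had 0 counts in B6 for both genes and 12 and 18 and 23 and 11 in NOD. The difference in size within pairs was not tested.

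The 250 bases before the RefSeq starts of the called genes Hist1h2bg and Hist1h4d (GRCm38.p6, both plus strand) are printed because one lies in a head-to-head pair and the other stands alone. Capitals mark the CCAAT box, the octamer ATTTGCAT and the TATA box, searched as TATAAA, on either strand. The region of Hist1h2bg is chr13:23571150-23571399 and that of Hist1h4d is chr13:23581318-23581567. The RefSeq start of Hist1h4d lies 34 bases before the start in the count table, and that of Hist1h2bg is the same in both.
Hist1h2bg: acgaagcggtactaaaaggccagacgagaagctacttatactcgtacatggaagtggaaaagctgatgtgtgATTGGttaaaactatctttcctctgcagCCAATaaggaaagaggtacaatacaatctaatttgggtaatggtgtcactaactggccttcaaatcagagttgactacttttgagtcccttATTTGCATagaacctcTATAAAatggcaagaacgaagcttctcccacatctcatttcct
Hist1h4d: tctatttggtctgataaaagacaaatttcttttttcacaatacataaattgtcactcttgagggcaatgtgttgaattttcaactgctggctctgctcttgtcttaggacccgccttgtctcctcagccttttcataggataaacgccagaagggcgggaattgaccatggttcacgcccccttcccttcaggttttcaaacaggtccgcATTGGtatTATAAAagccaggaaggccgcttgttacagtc

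Promoters of 300 bases were matched for 62 cluster and 14 variant genes. CCAAT was present in all matched promoters of the cluster genes of H1 (6), H2A (18), H2B (16) and H3 (10) but in 3 of the 12 of H4, against 37.4% of 32851 mouse promoters. The octamer was found in 7 of 18 H2A and 6 of 16 H2B promoters and in none of the other cluster families, against 1.74% of all promoters. TATAAA was found in 35 of the 62 cluster promoters and in 1 of the 14 variant promoters, against 13.6% of all. The promoters of a head-to-head pair overlap and count the same letters for both genes. These matches describe the sequence only.

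Where the annotated transcript ends was also compared, since oligo(dT) copies polyadenylated messages. Of the 43 cluster genes with a stem-loop, 21 have a matched transcript that ends within 100 bases of it and 22 one that runs further. The first 21 genes summed to 33.7 CPM in B6 and to 9.08 and 9.96 in NOD, a 3.54-fold ratio. The other 22 summed to 136 CPM in B6 and to 19.3 and 18.8 in NOD, a 7.12-fold ratio, and hold Hist1h4d, Hist1h1d and Hist1h2bg. Without Hist1h4d their ratio was 4.005-fold. The 24 cluster genes without a match summed to 119 CPM in B6 and to 24.02 and 20.7 in NOD, a 5.31-fold ratio that was 3.78-fold without Hist1h2bc. Cluster genes with a poly(A) signal at the annotated end (17 genes) stood at 37.6 CPM in B6 and 11.8 and 12.2 in NOD, a 3.13-fold ratio, against 6.43-fold for the 50 without, which was 4.92-fold without Hist1h4d. All these groups were higher in B6 as a sum, and the difference between them was not tested. The groups without a stem-loop match or a poly(A) signal include genes whose matched transcript is shorter than the listed span.

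By position, the first Hist1 block (chr13:21715713-22043658, 23 genes) summed to 58.1 CPM in B6 and to 21.3 and 19.8 in NOD, 2.83-fold. The main block (31 genes) summed to 213 CPM in B6 and to 24.7 and 22.5 in NOD, 8.99-fold and 6.55-fold without Hist1h4d. It held all 4 called genes among 23 tested, against 0 among 12 tested in the first block and 7.39% called lower of all genes tested. The difference between the blocks was not tested. The Hist2 genes on chromosome 3 summed to 9.39 CPM in B6 and to 4.05 and 2.26 in NOD. The Hist3 genes on chromosome 11 summed to 8.07 CPM in B6 and to 1.75 and 4.26 in NOD.

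The variant histones did not move as a group. Of 12 tested, 3 were called lower in NOD, H2afj, H2afy and H1fx, and none higher, against the background of 7.39% and 10.3%. In 4 of the 12 both NOD libraries were below B6 and in 7 both above, against 39.4% and 45.3% of all genes tested. Among those above, H2afy3 passed the filter through NOD only. Their median log2 fold change was 0.24, against 0.26 over all genes. Of the other 9, the oocyte linker histone H1foo was lower in both NOD libraries and H3f3a overlapped.

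**Figure D4:**
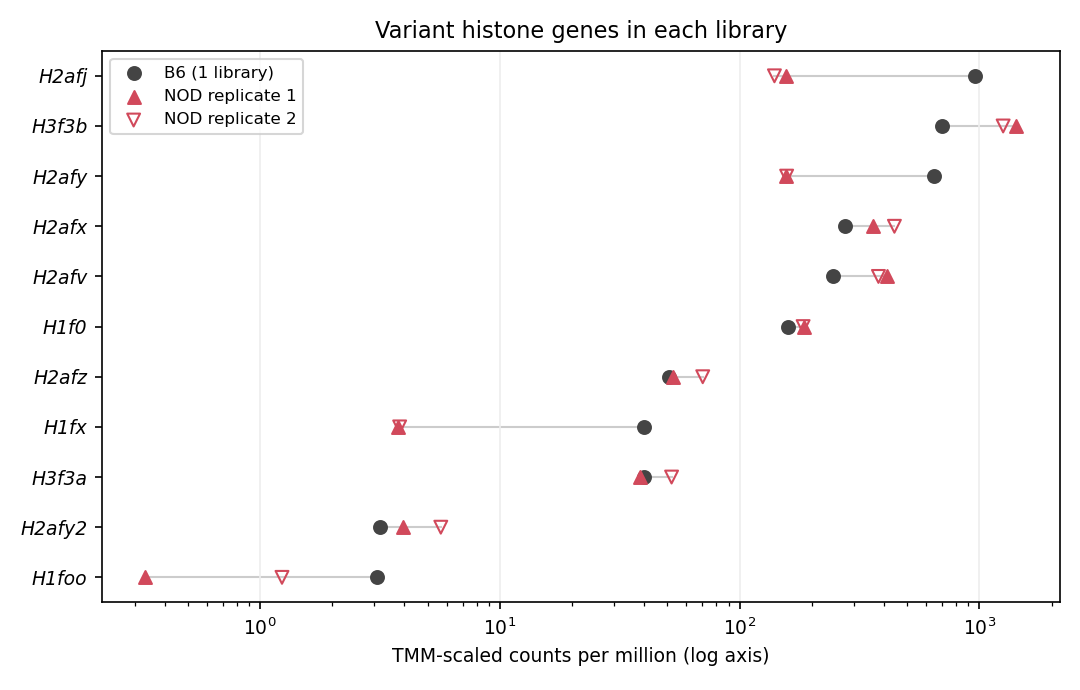
Each row is a variant histone gene counted in every library (11 genes), and the horizontal log axis gives TMM-scaled CPM in the B6 library (circles) and both NOD libraries (triangles), with a grey line from the lowest to the highest. H2afj, H2afy and H1fx lie far to the right in B6 with both NOD triangles almost on top of each other, and H3f3b lies to the right in NOD.

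Of the 7 tested H2A variants, H2afj and H2afy were called lower and none higher. H2afj (chr6:136808248-136810074, plus strand) encodes H2A.J, a variant close to canonical H2A. It was the most abundant variant in B6 with 957 CPM, and stood at 157 in NOD replicate 1 and 140 in NOD replicate 2. The log2 fold change was -2.69 (SE 0.21, adjusted p = 0.0196), and the share of H2afj in the variant counts was 30.7% in B6 and 5.60% and 5.19% in NOD. H2afj lies on chromosome 6 near the cluster gene Hist4h4 (chr6:136803993-136804431), which was counted in NOD only.

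H2afy (chr13:56073622-56135550, minus strand) encodes macroH2A1, which carries a large extra domain and is known from silent chromatin such as the inactive X chromosome. It had 645 CPM in B6, 156 in NOD replicate 1 and 157 in NOD replicate 2, a log2 fold change of -2.04 (SE 0.21, adjusted p = 0.0203). Its relative H2afy2, which encodes macroH2A2, stood at 3.16 CPM in B6 and at 3.93 and 5.67 in NOD (adjusted p = 0.596), and its listed span overlaps Aifm2 and Mir5108. Per listed length there were 199 counts of H2afy for each of H2afy2 in B6, and 38.7 and 26.9 in NOD. Only the abundant macroH2A gene was thus called, and the difference between these genes was not tested. The listed pseudogene H2afy3 had 0, 11 and 8 counts within the span of Pvt1, or 1.29-fold and more above the B6 floor (adjusted p = 0.233).

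H2afx encodes H2A.X, which is phosphorylated around DNA breaks, and its message exists in a stem-loop form and a polyadenylated form. It had 276 CPM in B6 and 361 and 442 in NOD (log2 fold change 0.54, SE 0.25, adjusted p = 0.175). H2afx, the variant with a stem-loop, was therefore not lower in NOD, unlike the sum of the cluster genes. The ratio of H2afj to H2afx, per listed length, was 2.58 in B6 and 0.323 and 0.235 in NOD.

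H2A.Z, which marks promoters, is encoded by H2afz and H2afv. H2afv stood at 245 CPM in B6 and at 413 and 379 in NOD (log2 fold change 0.69, SE 0.23, adjusted p = 0.0928), and H2afz at 50.7 CPM in B6 and at 52.5 and 70.2 in NOD (adjusted p = 0.602). H2afv was the stronger of both genes in every library, 3.15-fold per listed length in B6 and 5.13-fold and 3.52-fold in NOD. Of the words of H2afz, 69.6% occur in other genes, and of those of H2afv 0%.

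The replacement histone H3.3, which is laid down outside S phase, comes from 2 genes. H3f3b (chr11:116021961-116024504, minus strand) had 9538 counts in B6 and 47052 and 42725 in NOD, or 700, 1424 and 1256 CPM. Its adjusted p of 0.0438 passed the threshold, but its log2 fold change of 0.94 (SE 0.20) was under 2-fold, so that H3f3b was not called. Relative to the median of all genes this was 0.67, which was not tested. H3f3a stood at 39.9 CPM in B6 and at 38.5 and 52.0 in NOD, and its log2 fold change was 0.18 (adjusted p = 0.746), or -0.01 with total counts. Relative to the median of all genes it was -0.08, which was not tested. H3f3b thus held nearly all counts listed for H3.3 in both strains, 9.44-fold H3f3a per listed length in B6 and 19.9-fold and 12.9985-fold in NOD. Of the words in the listed span of H3f3a 82.3% occur in other genes, and of those of H3f3b 10.6%, so the counts of H3f3a and these ratios are uncertain. It made up 22.4% of the variant counts in B6 and 50.9% and 46.7% in NOD.

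Among linker variants, H1fx, a replication-independent H1, had 546 counts in B6 and 124 and 130 in NOD. These were 40.1, 3.75 and 3.82 CPM, with a log2 fold change of -3.40 (SE 0.45, adjusted p = 0.0231). H1f0, the linker variant known from cells that leave the cell cycle, stood at 159 CPM in B6 and at 185 and 184 in NOD (log2 fold change 0.21, adjusted p = 0.530). There were 0.543 counts of H1fx for each of H1f0 in B6, per listed length, and 0.0438 and 0.0448 in NOD. The oocyte linker histone H1foo had 42 counts in B6 and 11 and 42 in NOD, or 3.08, 0.333 and 1.23 CPM (adjusted p = 0.305). It was the lowest of the linker variants with counts.

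Per kilobase of listed length, the order of the variants in B6 was H2afj (525 CPM per kb), H3f3b (352), H2afy (331), H2afx (204), H2afv (151), H1f0 (69.7), H2afz (47.8), H1fx (37.8) and H3f3a (37.3), then H1foo (2.78) and H2afy2 (1.66). With 1 B6 library, neighbours in this order have no spread to compare with. The NOD order by the mean of 2 libraries was H3f3b (674), H2afx (296), H2afv (243), H2afj (81.2), H1f0 (80.7), H2afy (80.3), H2afz (57.7), H3f3a (42.3), H1fx (3.58), H2afy2 (2.53), H1foo (0.708) and H2afy3 (0.149). The NOD ranges of H2afj, H1f0 and H2afy overlapped, and those of the other neighbours in the NOD order did not. On the same scale the highest cluster gene was Hist1h4d with 170 CPM per kb in B6, between H2afx and H2afv, and Hist1h1b with 15.3 in NOD, between H3f3a and H1fx.

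**Figure D5:**
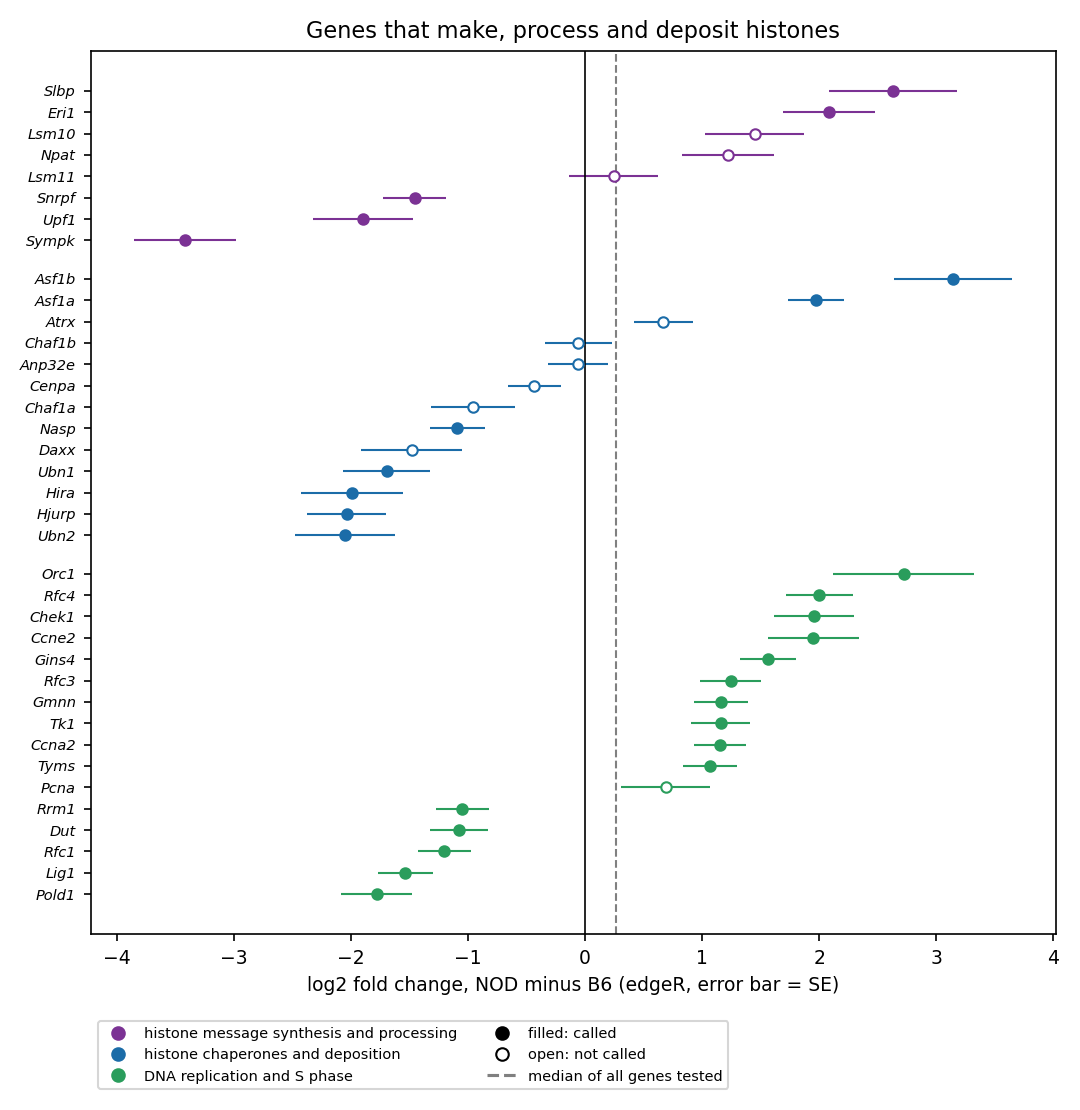
Points give the log2 fold change (NOD minus B6, horizontal axis) with its standard error for the called and the named genes of 3 lists, which make and process histone messages (purple), carry and deposit histones (blue) or replicate DNA (green); filled points were called. Among the genes shown of each list, Slbp, Asf1b and Orc1 lie furthest to the right and Sympk, Ubn2 and Pold1 furthest to the left. They lie on either side of the dashed median of all genes at 0.26.

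The factors that make and process cluster messages were compared in a list of 21 genes, all tested. Of these, 2 were called higher and 3 lower in NOD, against 10.3% and 7.39% of all genes, and the median log2 fold change was 0.35. Slbp, which binds the stem-loop, stood at 37.5 CPM in B6, 152 in NOD replicate 1 and 313 in NOD replicate 2 (log2 fold change 2.63, SE 0.55, adjusted p = 0.0407). It was not called with total counts or upper-quartile factors (adjusted p = 0.0509 and 0.0582). Eri1, an exonuclease that trims and degrades histone messages at the stem-loop, rose from 26.1 CPM to 92.5 and 129 (log2 fold change 2.08, SE 0.39, adjusted p = 0.0351).

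Sympk, the scaffold of the cleavage complex, fell from 45.3 CPM in B6 to 4.54 and 3.94 in NOD (log2 fold change -3.42, SE 0.43, adjusted p = 0.0229). Upf1, a helicase in the decay of histone messages, fell from 85.1 CPM to 28.4 and 17.5 (adjusted p = 0.0468), and the Sm protein gene Snrpf from 189 CPM to 71.6 and 65.8 (adjusted p = 0.0342). Npat, the S-phase activator of cluster genes, stood at 21.9 CPM in B6 and at 55.9 and 46.2 in NOD (adjusted p = 0.0898). Lsm10 and Lsm11 of the U7 particle, which guides the cut, had log2 fold changes of 1.45 and 0.24 (adjusted p = 0.0750 and 0.652). The list therefore held changes in both directions, and with upper-quartile factors 1 gene was called higher and 2 lower.

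Of the 38 genes that carry or deposit histones, 37 were in the table and tested, 2 called higher and 5 lower, against 10.3% and 7.39% of all genes, with a median log2 fold change of -0.34 against 0.26 over all genes. The H3-H4 chaperone genes Asf1a and Asf1b rose, Asf1a from 104 CPM to 413 and 402 (log2 fold change 1.97, SE 0.24, adjusted p = 0.0220) and Asf1b from 20.99 to 133 and 238 (3.14, SE 0.50, adjusted p = 0.0281). Of the 5 lower genes, Hira, which deposits H3.3, fell from 37.2 CPM to 10.4 and 8.29 (adjusted p = 0.0439). Its partners Ubn2 and Ubn1 fell from 97.9 CPM to 29.4 and 17.9 (adjusted p = 0.0408) and from 51.0 CPM to 16.6 and 14.9 (adjusted p = 0.0448), and Cabin1, another partner, stood at 46.8 CPM in B6 and at 19.03 and 14.2 in NOD without being called (adjusted p = 0.0650). Nasp, which holds spare H3 and H4, fell from 766 CPM to 399 and 319 (log2 fold change -1.09, adjusted p = 0.0426). Hjurp, which loads the centromeric variant Cenpa, fell from 274 CPM to 80.4 and 52.8 (log2 fold change -2.04, adjusted p = 0.0290). With upper-quartile factors 2 genes of this list were called higher and 1 lower, and the adjusted p-values of Hira, Ubn2 and Nasp were 0.0532, 0.0520 and 0.0549.

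Several chaperones were not called. Chaf1a and Chaf1b of the replication-coupled CAF-1 complex had log2 fold changes of -0.96 (adjusted p = 0.119) and -0.06 (adjusted p = 0.892). Daxx and Atrx, which place H3.3 in heterochromatin, had -1.48 (adjusted p = 0.0750) and 0.67 (adjusted p = 0.123). Cenpa stood at 277 CPM in B6 and at 209 and 200 in NOD (adjusted p = 0.214), and Anp32e, which removes H2A.Z, at 138 CPM and at 130 and 133 (adjusted p = 0.862).

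Of 48 genes of DNA replication and S phase, all tested, 10 were called higher and 5 lower, against 10.3% and 7.39% of all genes, with a median log2 fold change of 0.41 against 0.26 over all genes. Those called higher included Orc1 of the origin recognition complex (log2 fold change 2.72, adjusted p = 0.0449), the clamp loader subunit gene Rfc4 (2.001, adjusted p = 0.0242) and the checkpoint kinase gene Chek1 (1.95, adjusted p = 0.0312). Those called lower included the polymerase gene Pold1 (-1.78, adjusted p = 0.0305), the ligase gene Lig1 (-1.54, adjusted p = 0.0257) and Rfc1 (-1.20, adjusted p = 0.0350). Pcna, the sliding clamp, stood at 33.3 CPM in B6 and at 47.7 and 59.9 in NOD (adjusted p = 0.236). With total counts 4 genes of this list were called higher and 7 lower, and with upper-quartile factors 3 and 3. The replication genes thus moved in both directions while the sum of the cluster messages was lower in NOD.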

How the data were processed

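RNA was measured in 3 blastocyst libraries, grouped by the strain in their labels. The authors made cDNA with the SMART-Seq V4 kit and 19 cycles of PCR. Their reads, 50 bases from a single end, were aligned for both strains to mm10, a reference made from B6, with STAR (2.2.0c per the submitters' processing notes), and HOMER counted them on RefSeq exons regardless of strand. The deposited file holds these raw counts per gene. All 84 members and the gene lists were chosen with earlier results of these data known.

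Genes were filtered with filterByExpr (minimum count 10), scaled by TMM and tested with the quasi-likelihood test of edgeR 4.0.16 in R 4.3.3 (prior degrees of freedom 3.78, residual 1). Benjamini-Hochberg adjustment covered all 14456 genes tested. Calls needed an adjusted p under 0.05 together with a change of 2-fold or more. Signs follow NOD minus B6, with a prior count of 0.125, and CPM are TMM-scaled. The floor of a library is 3 counts, a limit for counting error alone, because PCR copies without molecular identifiers are not separate molecules. DESeq2 1.42.0, limma 3.58.1, other scaling factors and no filter were alternatives. The script was tested on simulated data.

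Named with values were every variant with at least 10 counts in a library, cluster genes that were called or among the 12 highest by mean CPM with at least 10 counts, H1foo, Hist1h1t, Hist1h2aa and Hist1h2ba, and of the 3 pathway lists a fixed set and up to 3 called genes per list and direction. Hist1h4a, Hist3h2ba, Hist4h4, the genes of head-to-head pairs, Ubn1, Cabin1 and the markers Sox2, Gata6, Pdgfra, Sox17, Zp1 and Bmp15 were named outside this rule, after their values were seen. Transcripts came from GENCODE M21 and promoters from RefSeq (GRCm38.p6).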

Additional observations from a re-analysis of the deposited data

How the results depend on the processing

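All 7 called histone genes kept their direction under each alternative, and size factors of DESeq2 and adjusted p without a fold limit left the cluster and variant counts within 1.5 times, apart from H3f3b, which made 1 variant higher without the fold limit. With limma-voom and without the filter on low counts, 0 genes passed the adjusted threshold in any list or over all genes, although 1633 and 3221 were higher and 2291 and 2347 lower at an unadjusted p under 0.05 (among cluster genes 9 and 13 lower), so that each call above depends on the test and the filter. With DESeq2's Wald test 2365 genes were higher and 1887 lower, and upper-quartile factors gave 701 lower. Among genes with under 10% shared words in the listed span, 0 cluster genes were called lower (2 at an unadjusted p under 0.05), and over whole matched transcripts, which can run far past the span, 1 was. In the message processing list, 1 gene was higher with total counts or upper-quartile factors and 5 with DESeq2. Among chaperones DESeq2 gave 4 higher and upper-quartile factors 1 lower. In the replication list 4 genes were higher with total counts and 3 with upper-quartile factors, which gave 3 lower, and DESeq2 gave 8 lower. The median of all genes was 0.26 with TMM factors and 0.07 with total counts, where H3f3a turned to -0.0081.

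The log2 ratio of cluster to variant counts differed by -2.33 to -2.30 when either NOD library was left out, by -1.98 without Hist1h4d and by -1.71 without H3f3b. With all members split by a stem-loop match, a split chosen after seeing the data, it turned to 0.27. That split puts H2afx with the stem-loop genes, and the 43 cluster genes with a match were 5.93-fold higher in B6 as a sum. The weight of H2afx in this turn was not tested. The planned search of the genome after each gene was not run, as no genome was given. No paired analysis was possible because only the NOD libraries carry replicate numbers. The B6 depth limits statements on weak cluster genes, and the single B6 library leaves its own spread unknown.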
